A study of Mus musculus with 4 samples.

Results

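The 10 genes that flank *Csf1r* on mouse chromosome 18 and are described here were followed in single-nucleus RNA counts of whole brain. They were *Hmgxb3*, *Pdgfrb*, *Slc26a2*, *Pde6a*, *Camk2a*, *Ppargc1b*, *Tcof1*, *Ndst1*, *Synpo* and *Dctn4*. All 10 were found by symbol, each as 1 of the 31053 gene rows of the 4 matrices, by a rule that uses no measured value. The mice were untreated 2-month-old C57/BL6 females. WT controls (2 libraries, replicates 1 and 2) were compared with *Csf1r*+/- mice (HET, 2 libraries, replicates 1 and 2), which carry 1 disrupted *Csf1r* allele from the germline, in every cell of the body. The comparison asks whether expression of the neighbors of the targeted gene differs between the genotypes, in which cell classes, and whether this varies with distance from the targeted gene. After filters on depth and mitochondrial RNA, 52132 of 53990 nuclei were used.

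*Csf1r* encodes the receptor for CSF-1 and IL-34 and in the brain is expressed by microglia, which depend on it. Its neighbors have no common pathway. *Camk2a* (the alpha subunit of calcium/calmodulin-dependent kinase II) and *Synpo* (synaptopodin, an actin-associated protein of the spine apparatus) serve excitatory synapses. *Ppargc1b* (PGC-1β) is a coactivator of mitochondrial gene expression, and *Dctn4* is a subunit of dynactin, which links dynein to its cargo. *Tcof1* (treacle) acts in ribosome biogenesis, *Ndst1* sulfates heparan sulfate chains, *Slc26a2* carries sulfate into cells, *Pdgfrb* is the PDGF receptor of pericytes and other mural cells, and *Pde6a* is the catalytic cGMP phosphodiesterase subunit of rod photoreceptors. *Hmgxb3* encodes a protein with an HMG box.

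In the mm10 annotation, *Csf1r* lies on the plus strand at chr18:61100598-61132149. *Hmgxb3* (chr18:61131277-61177050) runs toward it on the minus strand, and their 3′ ends overlap by 873 bp. The 3′ kit keeps strand, but the counting settings are not given in the sources used here, so reads of the overlap are uncertain. *Pdgfrb* (chr18:61045150-61085061) ends 15.5 kb before *Csf1r* on the same strand. On the higher-coordinate side follow *Slc26a2* (60.8 kb away, chr18:61192919-61211612), *Pde6a* (88.2 kb, chr18:61220315-61289924) and *Ppargc1b* (166 kb, chr18:61298136-61400431). On the lower-coordinate side are *Camk2a* (112 kb, chr18:60925618-60988152), *Tcof1* (252 kb, chr18:60813755-60848971), *Ndst1* (352 kb, chr18:60684494-60748650), *Synpo* (440 kb, chr18:60593973-60660142) and *Dctn4* (542 kb, chr18:60526185-60558766). Another 24 annotated genes lie within 1 Mb of *Csf1r*.

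The libraries held 89436507 to 112226479 unique molecular identifiers (UMIs, the distinct captured transcripts), with a median of 4636 to 7454 per kept nucleus. Both WT libraries had a lower median (5490 and 4636) than both HET libraries (7454 and 6656). They also had more kept nuclei (16114 and 15247, against 9589 and 11182). Depth and number of nuclei therefore went with the genotype, and their part in the genotype differences was not tested. Nuclei were put into classes by marker genes, none of which is *Csf1r* or a flanking gene, and a class name means nuclei that resemble that type by its markers. Of the marker lists, 13 of 16 (cortical or hippocampal excitatory neurons, called cortical excitatory neurons here), 13 of 15 (subcortical excitatory neurons) and 16 of 17 (other inhibitory neurons) were higher in their class than in the remaining nuclei. All markers were higher for striatal projection neurons, microglia, mature oligodendrocytes, astrocytes and endothelial nuclei. The 8 classes had between 105 nuclei (astrocytes) and 26085 nuclei (cortical excitatory neurons). Nuclei of glial and vascular classes also carried neuronal RNA: the 8 pan-neuronal markers made up 2148 to 10347 of every 1000000 UMIs in single libraries, against 30986 to 33054 in neurons. Glial and vascular nuclei with 30 or more UMIs of these markers had been left out of the classes, which limits these levels.

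The targeted gene was examined first. In microglia, *Csf1r* stood at 850 and 823 UMIs per 1000000 UMIs of the class (CPM) in the WT libraries and at 552 and 583 in the HET libraries. Both HET values lay below both WT values (log2 fold change, HET minus WT, -0.59 ± 0.21 SE, unadjusted p = 0.0135, adjusted p = 0.350, edgeR quasi-likelihood test). In neurons, where *Csf1r* was at trace level, the order was the other way: 0.676 and 1.42 CPM in WT and 4.16 and 4.45 in HET (log2 2.13 ± 0.33, unadjusted p = 0.000229, adjusted p = 0.9998, edgeR quasi-likelihood test). The adjusted call depended on the test: in neurons the adjusted p was 0.000108 with the likelihood-ratio test of edgeR and 1.33e-05 with DESeq2, and in cortical excitatory neurons it was 0.0265 and 0.00165. The 16 microglial markers summed to 50.7 and 81.7 CPM in the WT neurons and 57.0 and 76.5 in the HET neurons, so that they did not separate the genotypes.

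*Camk2a* and *Synpo* both had their highest mean in cortical excitatory neurons. *Camk2a* was present at 548, 612, 702 and 559 CPM in cortical excitatory neurons (WT replicates 1 and 2, then HET replicates 1 and 2, the order used throughout). It was 1.38-fold higher there than in striatal projection neurons, which held 401, 479, 431 and 445, and the 2 classes did not overlap. Subcortical excitatory neurons (mean 262 ± 19.0, SD, n = 4) and other inhibitory neurons (235 ± 20.3) came next and overlapped with each other. Astrocytes (368 ± 354) overlapped with all of these classes, and their values are given with the genotypes. Cortical excitatory neurons exceeded the other inhibitory neurons by 2.57-fold, and by between 2.38-fold and 2.87-fold in single libraries. *Synpo* followed a like order, with 43.8, 53.8, 56.9 and 42.4 CPM in cortical excitatory neurons and 31.2, 47.0, 31.0 and 34.0 in striatal projection neurons. For *Synpo* these 2 classes overlapped. Its means were 12.2 ± 2.53 and 11.9 ± 1.35 in other inhibitory and subcortical excitatory neurons. Cortical exceeded subcortical excitatory neurons by 4.13-fold for *Synpo* and by 2.31-fold for *Camk2a*.

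The nuclei were also grouped into 36 Leiden clusters, of which 35 had 10 nuclei in every library and 1 with 43 nuclei was left out. In 3 of the 35 clusters most nuclei had high doublet scores (82.6% to 96.4%). Over the 35 clusters *Camk2a* ranged from 93.2 to 881 CPM. It was highest in a cluster led by *Zbtb20*, *Glis3* and *Shisa6* (881 ± 75.3, n = 4) and next in a cluster led by *Ccbe1*, *Nectin3* and *Rasgrf2* (844 ± 85.8), and these 2 overlapped. The second of these was also the cluster with the most *Synpo* (65.5 ± 9.82). *Ndst1* differed little between the neuronal classes, microglia and oligodendrocytes (means of 12.6 to 16 CPM). Endothelial nuclei had a mean of 23.1 ± 12.5, from 2 to 9 UMIs per library, and astrocytes 9.31, from 2 UMIs in WT replicate 2. Between clusters *Ndst1* was uneven. It reached 33.1, 39.4, 36.6 and 31.6 CPM in a cluster led by *Foxp2*, *Hs3st4* and *Tle4*, genes of deep cortical layers, against 6.54 ± 0.667 in a cluster led by *Rorb*, with a median of 14.4 over the 35 clusters.

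*Ppargc1b* had another order among neurons. It was highest in striatal projection neurons (97.8, 101, 89.5 and 98.0 CPM), followed by other inhibitory neurons (75.4, 69.4, 83.9 and 78.7), with no overlap between them. Subcortical (60.5 ± 2.12) and cortical (56.6 ± 3.83) excitatory neurons were lower and overlapped. Microglia (23.8 ± 9.54), endothelial nuclei (12.5 ± 11.3) and mature oligodendrocytes (8.48 ± 5.73) were below every neuronal class. *Pde6a* was low, with 2514 UMIs in all nuclei, and 94.4% of these came from neurons. It stood at 6.75, 18.5, 9.75 and 15 CPM in striatal projection neurons and at means of 6.37 to 6.83 in the other neuronal classes. In microglia 0 of 976495 UMIs were *Pde6a*, which allows up to 3.07 CPM for counting error alone.

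*Dctn4* had its highest mean in mature oligodendrocytes. Mature oligodendrocytes held 173, 186, 136 and 158 CPM, 2.5-fold above cortical excitatory neurons and above every neuronal class in all 4 libraries. Microglia (106 ± 39.3), endothelial nuclei (104 ± 44.3) and astrocytes (83.0 ± 68.3) followed. The neuronal classes lay between 55.1 ± 8.55 (striatal projection neurons) and 72.6 ± 6.94 (other inhibitory neurons). Microglia (68.6 to 161), endothelial nuclei (55.5 to 153) and astrocytes (0 to 166) overlapped with other inhibitory neurons (66.6 to 80.4). *Hmgxb3* stood at means of 28.1 to 39.9 in neurons and oligodendrocytes, 49.1 ± 16.3 in microglia and 19.4 ± 7.29 in endothelial nuclei. Astrocytes had a mean of 6.09, from 1 UMI in WT replicate 1. Every pair of neighbors in this order overlapped. Classes farther apart did not all overlap: microglia (34.7 to 63.7) lay above striatal projection neurons (23.2 to 32.9) and endothelial nuclei (12.3 to 29.2). *Tcof1* lay between 7.37 ± 0.627 and 20.5 ± 9.14 CPM outside astrocytes, again with overlap at each step. When classes were taken from Leiden clusters in place of single nuclei, the class labeled astrocyte was the highest for *Hmgxb3* and *Tcof1*. A cluster was labeled by the commonest class among those of its nuclei that had a single class. None of the 35 clusters had astrocytes as the commonest group of all its nuclei, so this label need not mean astrocytes.

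Among the 8 classes *Pdgfrb* was highest in endothelial nuclei and astrocytes, and mural nuclei held more. The 25 mural nuclei, too few to compare by genotype, held 1209, 1268, 2525 and 1228 CPM, from 9 to 11 UMIs per library. Endothelial nuclei held 101, 31.7, 43.8 and 222, and 8 of the 36 *Pdgfrb* UMIs of HET replicate 2 came from 1 nucleus. Astrocytes held 73.0, 55.8, 33.2 and 211 CPM, from 1 to 3 UMIs per library, overlapped with endothelial nuclei and were the highest of the 8 classes when WT replicate 1 was left out. Mural markers summed to 2261 to 3176 CPM in the same endothelial nuclei, against 26 to 33 in neurons, and their part in the endothelial level was not tested. Neurons held 0.892 to 1.74 CPM, and 48.1% of all *Pdgfrb* UMIs came from this large class. *Slc26a2* was scarce in neurons (3.25, 3.18, 3.16 and 3.03) and highest in microglia (30.3, 11.8, 38.4 and 39.2, from 3 to 11 UMIs per library). In astrocytes 0 of 139140 UMIs were *Slc26a2*, which allows up to 21.6 CPM. With classes taken from Leiden clusters, the class labeled astrocyte was the highest for this gene too, and there the label need not mean astrocytes.

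**Figure D1:**
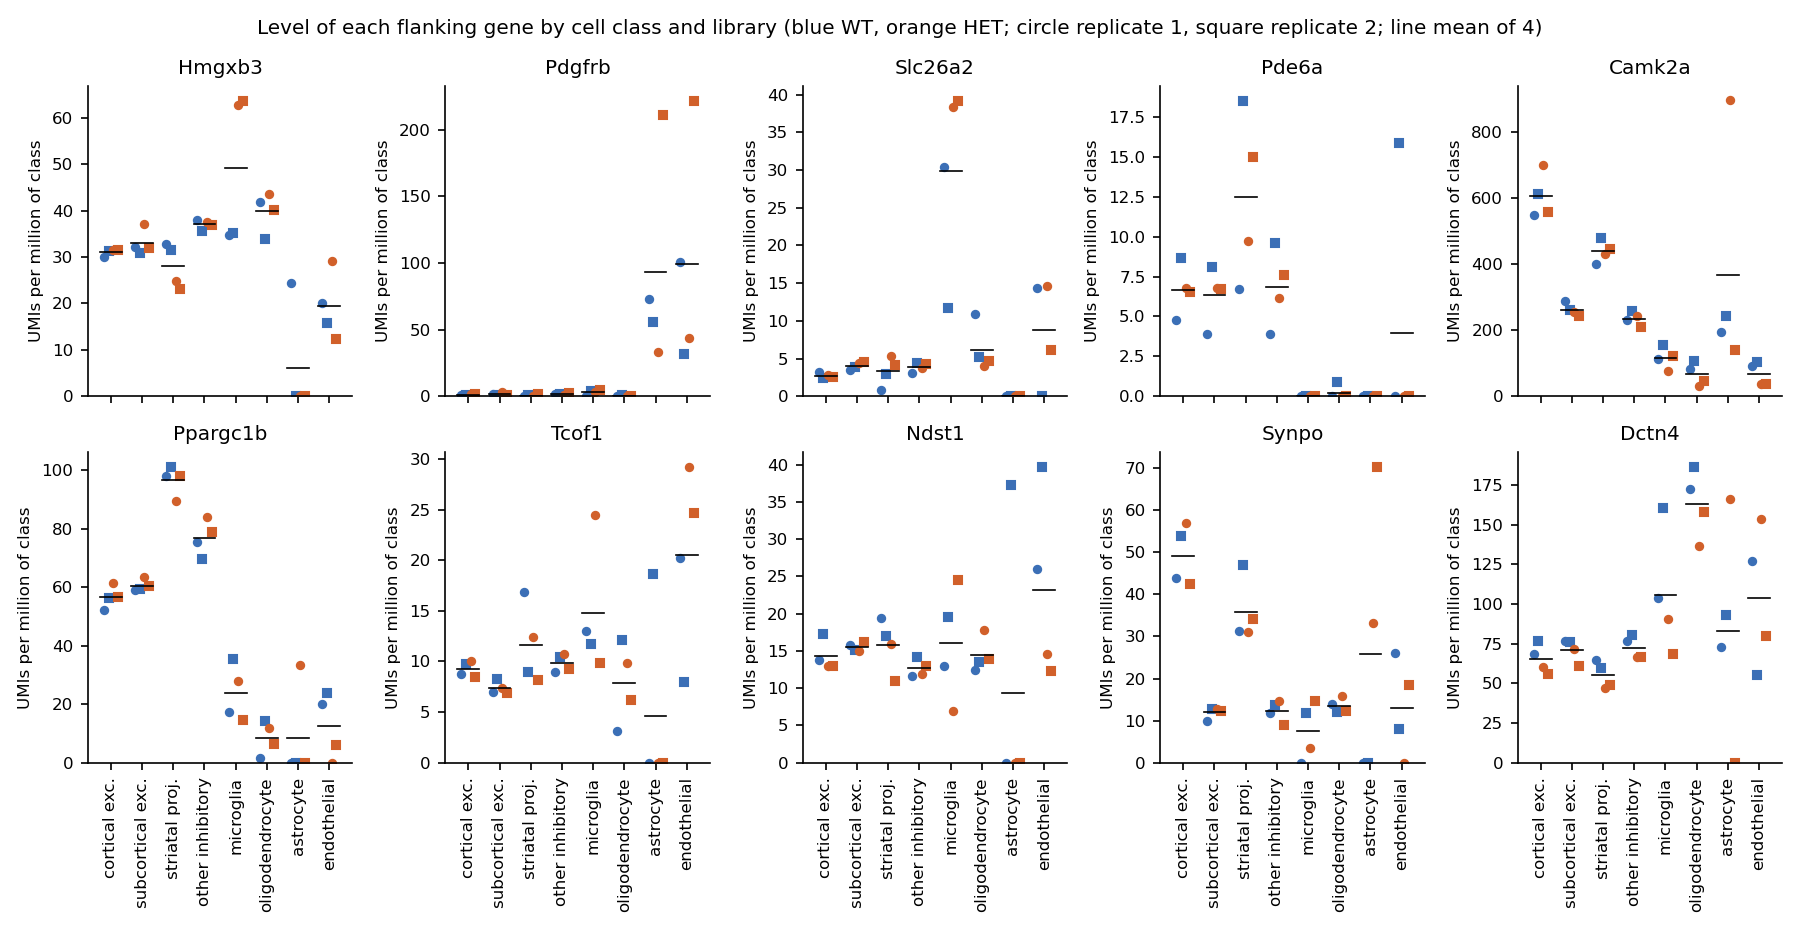
CPM (UMIs per 1000000 UMIs of the class, vertical axis, linear, a separate scale for each gene) for the 10 flanking genes in 8 cell classes (horizontal axis), with 1 point per library and a line at the mean of 4. *Camk2a* and *Synpo* are highest in cortical excitatory neurons (means 605 and 49.3), *Ppargc1b* in striatal projection neurons (96.6), *Dctn4* in oligodendrocytes (163) and *Pdgfrb* in endothelial nuclei and astrocytes (99.5 and 93.2), where single libraries spread widely.

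For the genotype comparison, the UMIs of all nuclei of a class were added up within each library, and edgeR was fitted across all genes of that class. Of the 80 pairs of a flanking gene and a class, 55 had the 20 UMIs needed for a test and 25 were not tested. None of the 55 passed an adjusted p of 0.05, where 0.122% of all gene and class pairs did (109 of 89676), and the smallest adjusted p was 0.105. At the unadjusted p of 0.01 that the study used, here without its filter on detection, 3 of the 55 passed, against 1.27% of all pairs. All 3 were *Camk2a* in a glial or vascular class. At an unadjusted p of 0.05 the count was 5, against 4.54%. In the neuronal classes no flanking gene passed 0.01, where 0.373% of all genes passed in cortical excitatory, 0.278% in subcortical excitatory, 0.632% in striatal projection and 0.388% in other inhibitory neurons, and 0.358% in all neurons together. Both HET libraries lay above both WT libraries in 8 of the 55 pairs and below in 14, against 14.5% and 15.5% of all pairs. The median log2 fold change of the 10 genes in all neurons was 0.085, and that of all 21229 genes tested was 0.003. In striatal projection neurons all 8 genes tested were on the lower side, from -0.41 (*Hmgxb3*) to -0.004 (*Camk2a*). Their median was -0.26, against -0.004 over all genes of the class. Both HET libraries lay below both WT libraries for 4 of these 8, against 1663 of 10910 genes on the other chromosomes. *Ppargc1b* is among these 4 only after TMM scaling, and narrowly (99.09 CPM in HET replicate 2 against 99.14 in WT replicate 1). Its raw values overlapped. Cortical excitatory, subcortical excitatory and other inhibitory neurons had 7, 6 and 6 of 10 on the higher side. All rest on the same 4 libraries.

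**Figure D2:**
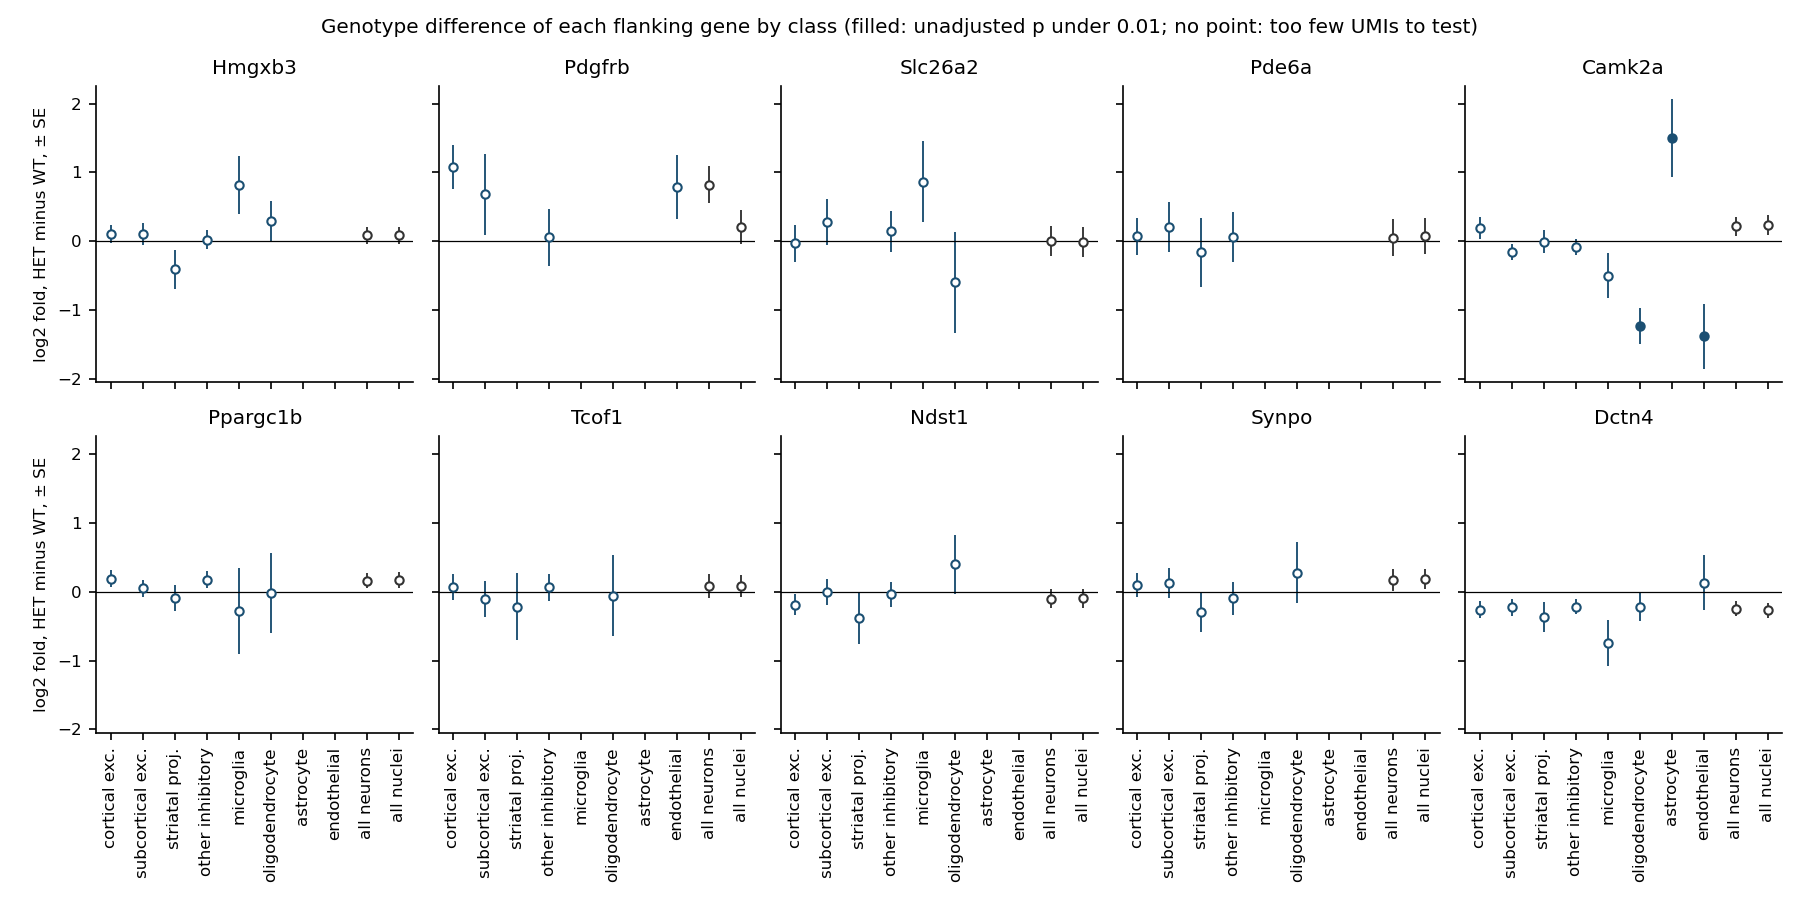
Log2 fold change of HET minus WT with its SE (vertical axis) for each flanking gene, ordered by distance from *Csf1r*, in the 8 classes, all neurons and all nuclei (horizontal axis). Filled points passed an unadjusted p of 0.01 (*Camk2a* in oligodendrocytes, astrocytes and endothelial nuclei), open points did not, and a missing point had fewer than 20 UMIs.

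*Pdgfrb*, the nearest gene on the same strand, had the largest difference in neurons among the 10. Cortical excitatory neurons held 47 and 45 *Pdgfrb* UMIs in the WT libraries and 102 and 94 in the HET libraries, or 0.687 and 0.957 against 1.77 and 1.53 CPM. Both HET values lay above both WT values (log2 1.08 ± 0.32, unadjusted p = 0.0115, adjusted p = 0.99997, edgeR). In this class 11.2% of all genes had both HET libraries above both WT libraries. The likelihood-ratio test of edgeR, the test of the study, gave an unadjusted p of 0.00333 (adjusted p = 0.661). The study also asked for expression in at least 10% of the cells of 1 genotype. *Pdgfrb*, with 45 to 102 UMIs among 5032 to 7970 nuclei per library, falls short of that. In other inhibitory neurons the values overlapped (1.48 and 1.77 in WT, 1.27 and 2.12 in HET, log2 0.06 ± 0.41). The difference between inhibitory and cortical excitatory neurons was -1.01 ± 0.44 on the log2 scale for *Pdgfrb* and -0.998 ± 0.436 for *Csf1r* (unadjusted p = 0.0430 and 0.0428, adjusted p = 0.912 for both, edgeR interaction test). Of all genes, 1.51% passed an unadjusted p of 0.01 in this interaction test, and neither did. Mural markers, at 33.5 and 27.6 CPM in WT and 27.7 and 35.3 in HET cortical excitatory neurons, did not separate the genotypes. Their sum is not specific to mural RNA, as *Rgs4* alone reached 18.9 CPM over the nuclei outside the mural class. The part of mural RNA in the *Pdgfrb* difference was therefore not tested. In endothelial nuclei the values overlapped (log2 0.79 ± 0.47, unadjusted p = 0.0995), and without WT replicate 1 the difference was 2.06 (unadjusted p = 0.00383).

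*Hmgxb3*, whose end overlaps that of *Csf1r*, differed by less than its SE in all neurons together. It stood at 31.8 and 32.7 CPM in WT neurons and 33.4 and 32.4 in HET neurons (log2 0.09 ± 0.12, unadjusted p = 0.490, edgeR). In microglia it stood at 34.7 and 35.3 in WT and 62.8 and 63.7 in HET, without overlap, from 8, 9, 18 and 13 UMIs (log2 0.82 ± 0.43, unadjusted p = 0.0767). *Slc26a2*, the next gene outward, also had both HET values above both WT values in microglia (log2 0.86 ± 0.59, unadjusted p = 0.166), from 7, 3, 11 and 8 UMIs. Of all genes tested in microglia, 19.6% had both HET libraries above both WT libraries.

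*Dctn4*, the most distant of the 10, had its HET libraries below the WT libraries in the largest number of classes. The WT neurons held 72.8 and 77.4 CPM, and the HET neurons 62.7 and 58.7 (log2 -0.24 ± 0.11, unadjusted p = 0.0631, adjusted p = 0.9998, edgeR). Over all nuclei the difference was -0.27 ± 0.11 (unadjusted p = 0.0430, adjusted p = 0.9995). Both HET libraries were below both WT libraries in 6 of the 7 classes tested, where 15.5% of all gene and class pairs were, with log2 values from -0.74 (microglia, unadjusted p = 0.0444) to -0.22. The exception was the endothelial class (127, 55.5, 153 and 80.0 CPM, log2 0.13 ± 0.40). Across the 35 Leiden clusters, both HET values lay below both WT values in 24, against 17.4% of all gene and cluster pairs, and in 22 of 32 without the clusters of high doublet scores, an alternative added after the data were seen. Of the 8850 genes tested in at least 30 clusters, 0.147% (13 genes) were below in as many clusters. *Dctn4* was singled out after its values were seen, and the clusters share the same 4 libraries and are no independent tests of the genotype. None of the 35 clusters passed an unadjusted p of 0.01.

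**Figure D3:**
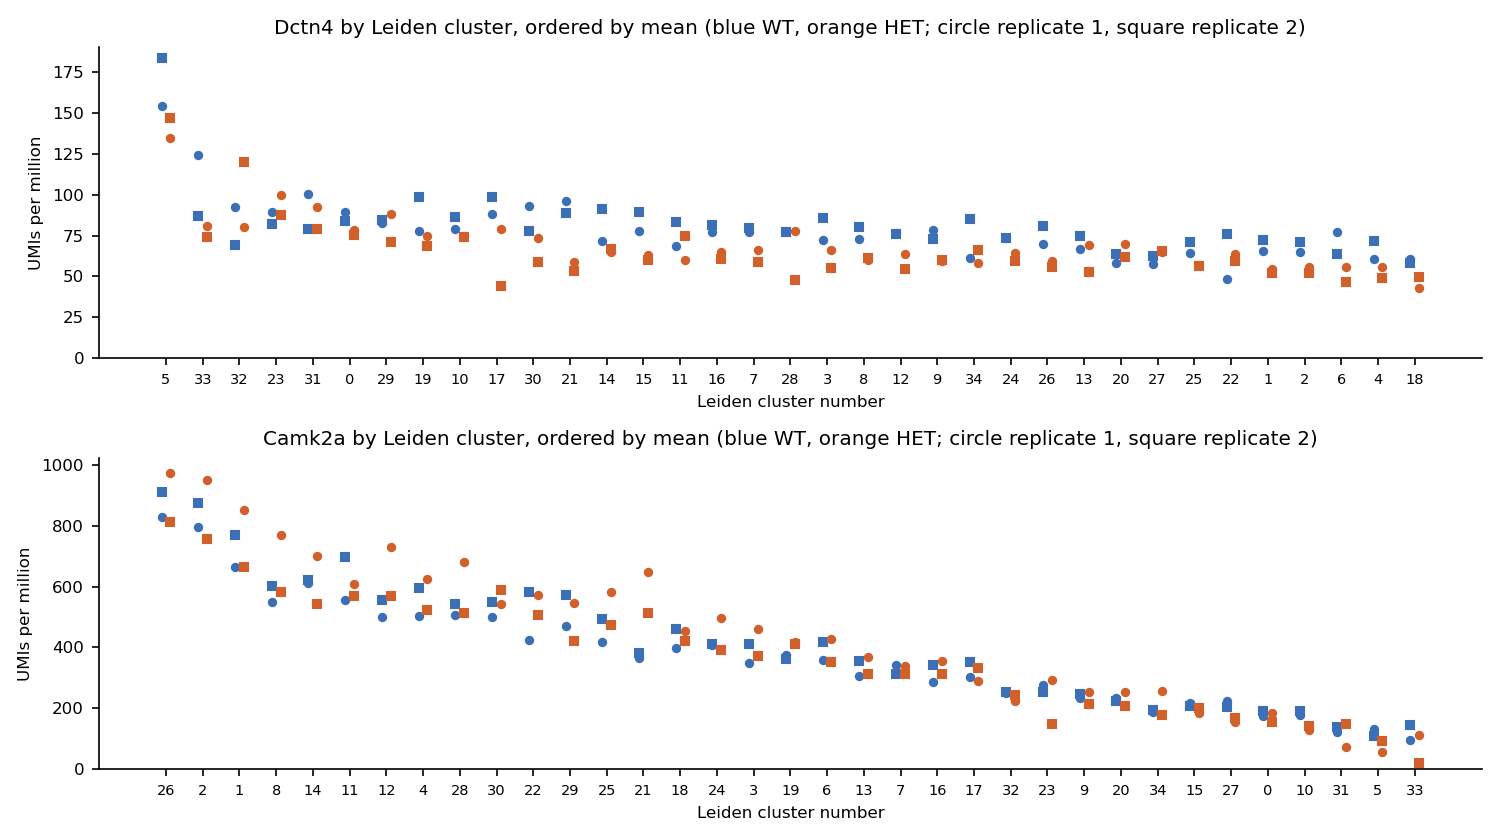
CPM (UMIs per 1000000 UMIs of the cluster, vertical axis, linear) for *Dctn4* and *Camk2a* in 35 Leiden clusters (horizontal axis, ordered by the mean of each gene), with 1 point per library. The HET points of *Dctn4* lie below the WT points in 24 clusters, and *Camk2a* runs from 881 to 93.2 from cluster to cluster.

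The other flanking genes differed little between genotypes in all neurons together. *Ppargc1b* had both HET libraries above both WT libraries in all neurons (58.1 and 60.7 CPM in WT, 66.1 and 61.2 in HET), with a log2 fold change of 0.16 ± 0.12 (unadjusted p = 0.199, edgeR). It was above in 12 and below in 2 of the 35 clusters, against 12.4% and 17.4% of all gene and cluster pairs. *Camk2a* was at 448 and 484 in WT and 569 and 468 in HET neurons, with overlap in these values and both HET libraries above after TMM scaling (log2 0.22 ± 0.14, unadjusted p = 0.159). *Synpo* had the same order of libraries (33.2, 39.9, 44.5 and 34.0, log2 0.17 ± 0.16). For both genes the fold change was lower in inhibitory neurons (striatal projection and other inhibitory together) than in cortical excitatory neurons. It was lower by 0.29 ± 0.10 for *Camk2a* and by 0.32 ± 0.13 for *Synpo*, at unadjusted p = 0.0105 and 0.0288 (adjusted p = 0.669 and 0.884, edgeR interaction test). *Ndst1* (13.5, 16.3, 13.2 and 13.4 CPM, log2 -0.10 ± 0.14), *Tcof1* (8.69, 9.73, 10.1 and 8.50, log2 0.08 ± 0.17) and *Slc26a2* (log2 0.00 ± 0.22) had differences below their SE. *Pde6a* varied more within WT (4.75 and 9.20) than between genotypes (6.81 and 6.84 in HET, log2 0.05 ± 0.27).

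*Camk2a* in glial and vascular nuclei was the one gene of the 10 past an unadjusted p of 0.01 in the 8 classes. WT oligodendrocytes held 82.4 and 106 CPM, and HET oligodendrocytes 32.6 and 46.4 (log2 -1.23 ± 0.26, unadjusted p = 0.000137, adjusted p = 0.105, edgeR). With the class taken from Leiden clusters the difference was -0.62 (unadjusted p = 0.0409). In endothelial nuclei it stood at 92.3 and 103 in WT and 36.5 and 36.9 in HET (log2 -1.38 ± 0.47, unadjusted p = 0.00584, adjusted p = 0.189). The pan-neuronal markers were lower in the same HET libraries, and their part in the difference was not tested. They made up 5079 and 4969 CPM of WT against 2148 and 3265 of HET oligodendrocytes, and 6938 and 5784 against 2329 and 3077 in endothelial nuclei. Both classes had left out nuclei with 30 or more UMIs of these same markers, whatever the depth of the library. The marker levels, and shares of them, were therefore limited by the class rule, and its part was not tested. Of all genes, 3.18% passed an unadjusted p of 0.01 in oligodendrocytes and 3.77% in endothelial nuclei. Set against the pan-neuronal UMIs of the same nuclei, *Camk2a* made up 1.62% and 2.14% in WT and 1.52% and 1.42% in HET oligodendrocytes, and 1.33%, 1.78%, 1.57% and 1.20% in endothelial nuclei. In neurons the same ratio was 1.35%, 1.56%, 1.81% and 1.44%. The genotype difference in oligodendrocytes differed from that in all neurons by -1.47 ± 0.26 on the log2 scale (adjusted p = 8.01e-06, edgeR interaction test), where 1.58% of all genes passed an adjusted p of 0.05, and it did not pass without WT replicate 2 or without HET replicate 1. Leaving out any 1 of the 4 libraries took the endothelial difference out of the 0.01 threshold, to unadjusted p values of 0.0141 to 0.0373.

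In astrocytes *Camk2a* went the other way, at 195, 242, 897 and 141 CPM (log2 1.5 ± 0.56, unadjusted p = 0.00835, adjusted p = 0.250, edgeR), in a class where 3.79% of all genes passed 0.01. The genotypes overlapped, and HET replicate 1 alone was high. There, 24 of the 27 *Camk2a* UMIs came from 1 of 15 nuclei, and without that library the log2 fold change was -0.48 (unadjusted p = 0.671). Without WT replicate 1 or WT replicate 2 the unadjusted p was 0.0603 and 0.0188.

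Distance from *Csf1r* was examined with all annotated genes around it. Of the 24 other genes within 1 Mb, 19 had enough UMIs in all neurons. Together with the 10 flanking genes, 29 genes were tested, 15 higher and 14 lower in HET, with a median log2 fold change of 0.004. Of these 29, 1 passed an unadjusted p of 0.01 (3.45%, against 0.358% of all genes) and none an adjusted p of 0.05, a threshold that 0 of all 21229 genes passed in neurons, where 76 passed the unadjusted 0.01. By distance, 0 of 5 genes within 100 kb passed 0.01, 0 of 10 between 100 and 500 kb, 1 of 14 between 500 kb and 1 Mb, 0 of 49 between 1 and 5 Mb and 3 of 438 farther along the chromosome (0.685%), against 0.343% on the other chromosomes. The size of the difference, as the median of the absolute log2 fold change, was 0.05, 0.14, 0.25, 0.11 and 0.11 in these 5 ranges and 0.13 on the other chromosomes. In the third range some genes held few UMIs over all nuclei (71, 89 and 113, with SEs of 0.42, 0.50 and 0.95), as did a gene of the second range (51, SE 0.51). The ranges were not matched for UMIs, so these medians cannot by themselves show whether the difference changes with distance. In single classes, some genes between 1 and 5 Mb did pass 0.01. In subcortical excitatory neurons these were 2 of 43, *1700011I03Rik* (log2 1.21 ± 0.24) and *Ctxn3* (1.48 ± 0.31), against 0.246% on the other chromosomes. In striatal projection neurons they were 2 of 32, *Htr4* (0.64 ± 0.17) and *Ccbe1* (-1.92 ± 0.57), against 0.596%. In endothelial nuclei 1 of 18 passed, *Chsy3* (-1.43 ± 0.36, adjusted p = 0.0368, edgeR), against 3.76%. These 5 genes were chosen for naming after their values were seen.

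The gene that passed was *1500015A07Rik*, 594 kb away (chr18:61726390-61735917), annotated as an antisense transcript that overlaps the end of *Afap1l1*, so that its reads there are uncertain too. It stood at 8.91 and 9.19 CPM in WT neurons and at 14.6 and 14.3 in HET neurons (log2 0.73 ± 0.15, unadjusted p = 0.00115, adjusted p = 0.9998, edgeR). Without HET replicate 1 the unadjusted p was 0.0121. It was higher at an unadjusted p of 0.01 in cortical excitatory (log2 0.76 ± 0.16), subcortical excitatory (0.999 ± 0.226) and other inhibitory neurons (0.61 ± 0.18), where 0.0554%, 0.123% and 0.0765% of all genes were. In striatal projection neurons the HET values (7.97 and 4.09) lay below the WT values (8.43 and 10.5), from 43 UMIs in all. *Afap1l1*, on the opposite strand, differed by 0.27 ± 0.16 in all neurons (unadjusted p = 0.132). *Rps14*, a ribosomal protein gene 322 kb away whose start overlaps that of *Ndst1*, was higher in HET microglia (247 and 231 against 506 and 338 CPM, log2 0.80 ± 0.26, unadjusted p = 0.00817) and lower in HET oligodendrocytes (51.3 and 141 against 45.5 and 34.0, log2 -1.25 ± 0.33, unadjusted p = 0.00123), where 3.22% and 3.18% of all genes passed 0.01. Without WT replicate 2 the oligodendrocyte difference was -0.30 (unadjusted p = 0.416), and without any 1 of WT replicate 1, WT replicate 2 and HET replicate 1 the microglial one missed 0.01 (unadjusted p = 0.0129, 0.0422 and 0.12498). With classes taken from Leiden clusters the microglial difference turned to -0.62 (unadjusted p = 0.0140), and the oligodendrocyte one missed 0.01 (-1.30, unadjusted p = 0.0257). In all neurons *Rps14* stood at 22.5 and 55.7 CPM in the WT libraries and 21.1 and 19.6 in the HET libraries (log2 -0.85 ± 0.32, unadjusted p = 0.0315, adjusted p = 0.9998), with WT replicate 2 alone high. Its fold change was on the lower side in all 4 neuronal classes and in 33 of the 35 clusters, and 1 cluster passed an adjusted p of 0.05. Both HET values lay below both WT values in 17 clusters and above in 2, against 17.4% and 12.4% of all gene and cluster pairs. The clusters share the same 4 libraries and are no independent tests. WT replicate 2 also had the highest median mitochondrial share (0.66%, against 0.14% to 0.27% in the other libraries). The part of this in the *Rps14* values was not tested.

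**Figure D4:**
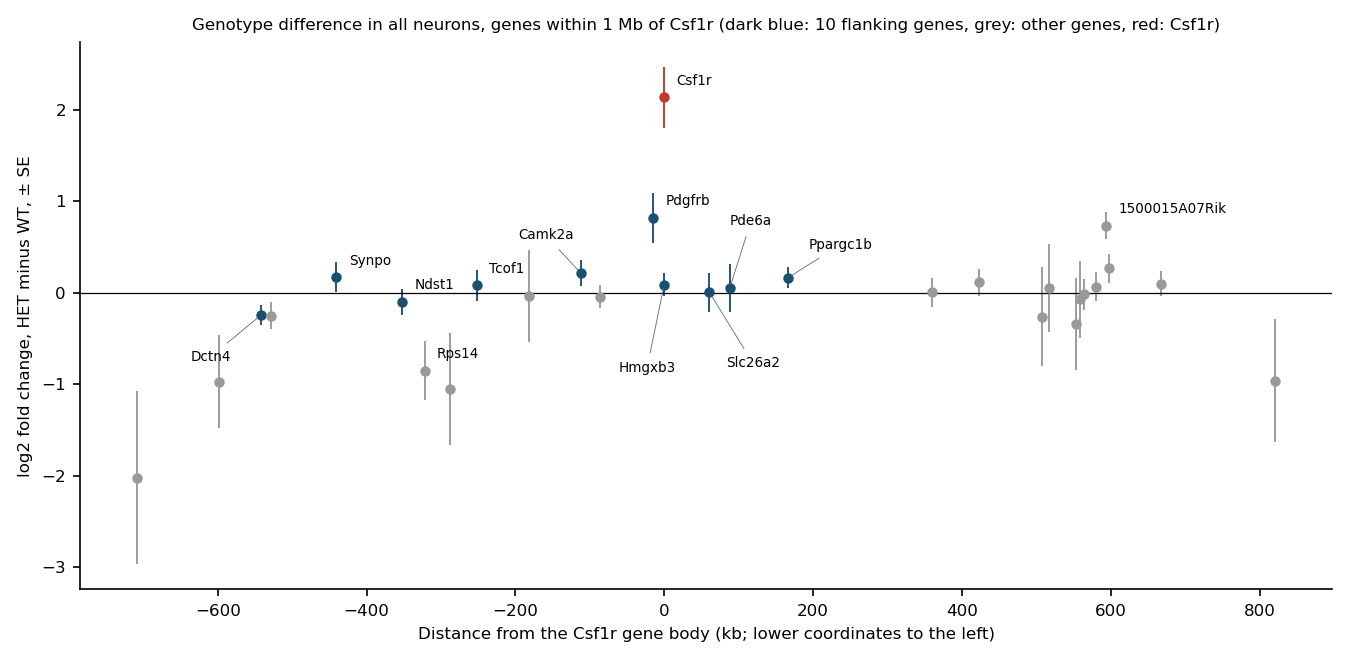
Log2 fold change of HET minus WT in all neurons with its SE (vertical axis) against distance from the *Csf1r* gene body in kb (horizontal axis, lower coordinates to the left) for *Csf1r*, the 10 flanking genes and 19 other genes within 1 Mb. Apart from *Csf1r* (2.13), *Pdgfrb* (0.82) and *1500015A07Rik* (0.73) stand highest, and the flanking genes otherwise lie between -0.24 and 0.22.

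The partners of the flanking proteins were read in all neurons from 10 lists with 82 genes, chosen by function and all tested. None passed an unadjusted p of 0.01, where 0.358% of all genes did. List medians of the log2 fold change ran from -0.20 to 0.03, beside 0.003 over all genes. For *Camk2a*, the 9 partners (the other kinase II subunits, its 2 inhibitors *Camk2n1* and *Camk2n2*, NMDA receptor subunits and *Dlg4*) had a median of -0.02 with 4 higher and 5 lower, and for *Synpo* the 8 actin and spine apparatus partners had a median of 0.01. Of the 11 dynactin and dynein partners of *Dctn4*, 9 were on the lower side, with a median of -0.02 and values from -0.18 to 0.12, none of them as low as *Dctn4* itself. Of the 9 ribosome biogenesis partners of *Tcof1*, 8 were on the lower side (median -0.16). On the other chromosomes 10231 of 20712 genes were on the lower side in all neurons. Both HET libraries lay below both WT libraries for 2 of the 9 *Tcof1* partners. Among those on the lower side, WT replicate 2 alone was high for *Npm1*, *Ncl*, *Fbl* and *Polr1c*, and not for *Polr1a*, *Polr1b*, *Polr1d* and *Nolc1*. The 5 genes of the PDGF system had a median of -0.20, against the 0.82 of *Pdgfrb*. For the heparan sulfate enzymes (11 genes), the PGC-1 coactivators and targets (8), the HMG box genes (7), the sulfate and anion transporters (7) and the cGMP phosphodiesterases (7), medians were 0.01, 0.03, -0.02, -0.09 and -0.13.

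Genes with the most similar profile over the 8 classes were listed for each flanking gene by Pearson's r of log2(CPM + 1). For *Camk2a* these were *Map9* (r = 0.996), *Cfap54* (0.989) and *Actr3b* (0.979), and for *Synpo* they were *Teddm2* (0.959), *Gpr26* (0.947) and *Dusp18* (0.939). *Ppargc1b* was closest to *Gm26681*, *Cdh22* and *Pard6b* (0.983 to 0.984), *Pde6a* to *A830092H15Rik*, *2410018L13Rik* and *1700086D15Rik* (0.982 to 0.985), and *Dctn4* to *Sirt2* (0.987), *Baz2b* and *Csf1*. *Pdgfrb* was closest to *Plscr1* (0.991), *Cox7a1* and *Mlf2*, and *Slc26a2* to *Sbno2* (0.996), *Tmem55b* and *Supt20*. *Hmgxb3* was closest to *Dna2*, *Gm17036* and *Chkb* (0.992 to 0.993), *Tcof1* to *Flt3l* (0.978), *Ppp1r15a* and *Vti1b*, and *Ndst1* to *1810009A15Rik* (0.974), *Upf1* and *Gm45051*. Among the flanking genes themselves, r ran from -0.87 (*Camk2a* and *Dctn4*) to 0.88 (*Tcof1* and *Ndst1*). These values rest on 8 points that share libraries and depth, and in small classes on few UMIs.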

How the data were processed

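Nuclei were isolated from whole brains of 2-month-old female WT and *Csf1r*+/- mice without detergent, freed of myelin debris, and processed with the 10x Genomics 3′ kit. The deposited values were raw UMI counts per gene and nucleus, made by the authors with Cell Ranger 5.0.0 (file headers) and mm10 (submitters' notes). Whether intronic reads were counted is not given in the sources used here. Of the study's libraries, 2 per genotype were used here. GENCODE M21 gave a position for 99.6% of the 31053 gene rows.

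Nuclei with 500 to 50000 UMIs, over 200 genes and under 5% mitochondrial UMIs were kept, 9589 to 16114 per library. Pairs of libraries shared 33 to 68 barcodes. A nucleus was put into a class from its marker counts. Nuclei with markers of more than 1 class were left out as possible doublets (402), as were 8018 neurons without a subclass (kept in all neurons). Also left out were 1695 glial or vascular nuclei with 30 or more pan-neuronal UMIs, a limit set after the data were seen. No other doublets were removed from the main results. Classes needed 10 nuclei in every library, so that precursors of oligodendrocytes, mural, fibroblast and ependymal nuclei were not tested.

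Counts were summed per library and class. Genes with at least 20 UMIs over the 4 sums were tested with the quasi-likelihood test of edgeR 4.0.16 (R 4.3.3, TMM scaling, two-sided, HET minus WT), with Benjamini-Hochberg adjustment over all genes of the class. The study's likelihood-ratio test was an alternative. Differences between classes were tested as an interaction with a term for each library. The SE of a log2 value was its absolute size divided by the square root of the F statistic of its test. It therefore restates the test and is no separate measure of spread. Levels were CPM (UMIs per 1000000 UMIs of the class), and whether libraries of the genotypes overlapped was read after TMM scaling unless raw values are given. Permuting 2 against 2 libraries exactly gives no p below 0.333, so no permutation was used. The labels do not say whether libraries of 1 genotype came from separate litters or preparations, and p-values measure the spread between these libraries. Clusters were made with scanpy 1.11.5 and leidenalg 0.10.2 (3000 variable genes, 30 components, resolution 1.0).

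The text names the 10 flanking genes and *Csf1r*, other genes within 1 Mb with an unadjusted p under 0.01 in any class, partner genes with such a p in neurons (there were none), and per flanking gene the 3 genes most alike over class means. A gene of 1 partner list is not reported here. *Afap1l1* and the partners listed by name are given as context. The genes, the marker and partner lists and the tests were chosen with earlier results of these data known. The test was checked on simulated counts with 200 changed genes. A log2 change of 0.5 was recovered at an unadjusted p of 0.01 for 25% of them in all neurons and 8.5% in microglia. At the adjusted threshold these shares were 0.5% and 0%. For a log2 change of 1 they were 74% and 39% unadjusted, and 44.5% and 0.5% adjusted. A lack of adjusted calls therefore does not exclude changes of these sizes. In the runs with a log2 change of 0.5, 1.04% of the unchanged genes passed an unadjusted p of 0.01 in all neurons and 0.910% in microglia. In the measured counts 0.358% and 3.22% of all genes passed it. Whether the recovered shares hold for the measured counts was not tested. Alternatives were DESeq2 1.42.0, RLE scaling, library totals alone, 2 other filters on low counts, a minimum of 1000 UMIs, removal of nuclei with high Scrublet scores, Leiden clusters in place of marker classes, a replicate block and leaving out each library. Limits from counts of 0 use 3 UMIs and cover counting error only.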

Additional observations from a re-analysis of the deposited data

Results flagged for a closer look

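The genotype difference of *Camk2a* in mature oligodendrocytes differed from that in all neurons by -1.47 ± 0.26 on the log2 scale (adjusted p = 8.01e-06, edgeR interaction test). Of all genes, 1.58% passed an adjusted p of 0.05 in the same test. In oligodendrocytes both HET libraries lay below both WT libraries, and in neurons the fold change was 0.22. The difference no longer passed when WT replicate 2 or HET replicate 1 was left out. The share of pan-neuronal RNA in these oligodendrocytes was lower in both HET libraries as well, and its part in the difference was not tested. That share was limited by the class rule, which left out nuclei with 30 or more pan-neuronal UMIs.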

How the results depend on the processing

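Of the 190 alternative values for 13 single results, 154 kept their direction and side of the threshold, 28 lost and 6 gained an unadjusted p under 0.01, and 2 reversed: *Camk2a* in astrocytes without HET replicate 1 (-0.48) and *Rps14* in microglia with Leiden clusters (-0.62). The number of flanking gene and class pairs under an unadjusted p of 0.01, 3 in the main results, was 1 with DESeq2, 1 with at least 1000 UMIs per nucleus, 0 with Leiden clusters and 1 to 2 when 1 library was left out. The number under an adjusted p of 0.05, 0 in the main results, was 1 with the likelihood-ratio test, 1 without a filter on low counts, 1 without high Scrublet scores and 0 to 2 when 1 library was left out. Each was *Camk2a* in oligodendrocytes, joined by *Camk2a* in astrocytes without HET replicate 2 (log2 2.08). Of the genes within 1 Mb, 1 passed 0.01 in neurons, against 2 with DESeq2, 2 without a filter and 0 to 3 with 1 library left out, 0 being without HET replicate 1. The 1 interaction became 0 to 1, with 0 without WT replicate 2 and without HET replicate 1. The highest class of all 10 genes stayed in place with 1000 UMIs, for 9 to 10 with 1 library left out, and for 7 with Leiden clusters. With these clusters *Hmgxb3*, *Slc26a2* and *Tcof1* moved to the class labeled astrocyte, a label that need not mean astrocytes. The causes were not tested. *Pdgfrb* in cortical excitatory neurons passed 0.01 with the likelihood-ratio test, RLE scaling, no filter and without high Scrublet scores. With the likelihood-ratio test and with RLE scaling it joined the 3 *Camk2a* pairs of the main results, so that the count rose.

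Nothing in the labels pairs the replicate numbers, and deviations of same-numbered libraries correlated at -0.18 (astrocytes) to 0.28 (microglia). With a replicate block, 2 pairs passed 0.01, 1 passed the adjusted threshold and 1 gene within 1 Mb passed 0.01. With crossed numbers 1 pair passed the adjusted threshold. For the interaction the block could not be fitted beside a term for each library. Depth limits the glial and vascular classes most, where single libraries held few UMIs of a flanking gene.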
